A study of Homo sapiens with 6 samples.

Results

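The tetraspanin family was described in 6 RNA-seq libraries of HepG2, a human hepatoblastoma-derived liver cell line. Members were the genes whose symbol is TSPAN followed by digits alone, or CD9, CD37, CD53, CD63, CD81, CD82 or CD151, which gave 25 of the 20026 genes in the table. The libraries form 3 groups of 2, which the labels name Scr, miR-27a KO and miR-23a KO. According to the study's methods, the KO cells were colonies grown from single sorted cells after Cas9 cutting with paired guides beside the miRNA, and Scr cells received the Cas9 vector with no guide. The labels give the genotype of Scr as WT and do not say whether the 2 libraries of a KO group came from 1 clone or from different clones, so the p-values below measure the spread between these libraries, which may be technical. Both miRNAs lie in one cluster with miR-24-2, and the comparisons ask which transcripts differ in cells edited at one of them. The study also describes lower levels of some other miRNAs of the cluster in either kind of KO cell. In miR-27a KO cells it describes a slight rise of miR-23a-3p too. A KO group is thus not the loss of a single miRNA. The miRNA transcripts themselves were not analysed here, so the edits were not checked in these libraries. Depth, as total counts, was 14891239 and 14405250 for Scr, 16515261 and 15930779 for miR-23a KO and 15850589 and 15947308 for miR-27a KO. One label calls the cells triple-negative, a breast cancer term that does not match HepG2.

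Tetraspanins are small proteins that cross the membrane several times and gather integrins, proteases, growth factor receptors and each other into membrane microdomains. CD9, CD63 and CD81 are widely used as markers of extracellular vesicles, CD151 binds laminin-binding integrins, and the TspanC8 members carry the protease ADAM10 to the cell surface. In liver cells CD81 is best known as an entry receptor of hepatitis C virus, and HepG2 is known for having little of it.

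The miRNAs disrupted in the KO cells are shown because their seed, bases 2 to 8 in capitals, sets the target letters searched for in the tetraspanin transcripts. Both are on the minus strand of GRCh38.p14, at chr19:13836595-13836615 for miR-23a-3p and at chr19:13836447-13836467 for miR-27a-3p, with sequences from RefSeq.
hsa-miR-23a-3p: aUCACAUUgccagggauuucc
hsa-miR-27a-3p: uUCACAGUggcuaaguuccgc

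Levels of the tetraspanins were first compared in Scr, as CPM, counts scaled to the size of each library, and, between genes, as CPM per kilobase of the longest principal transcript. CD63, a late endosome and vesicle protein, was the highest at 144 CPM per kilobase, followed by CD151 at 126, TSPAN4 at 64.2, TSPAN7 at 47.2 and TSPAN6 at 28.8. The order depends on the transcript taken for TSPAN14, a TspanC8 member, whose principal transcript has 16183 bases. With the median length of the RefSeq transcripts that the table lists, 808 bases for TSPAN14, its level was 197 in place of 9.82 CPM per kilobase, which put it first, and CD63, CD151, TSPAN4 and TSPAN7 followed. That second length was tried after the values had been seen. CD81 was among the low members, at 2.67 and 1.95 CPM in Scr, or 1.52 CPM per kilobase.

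**Figure D1:**
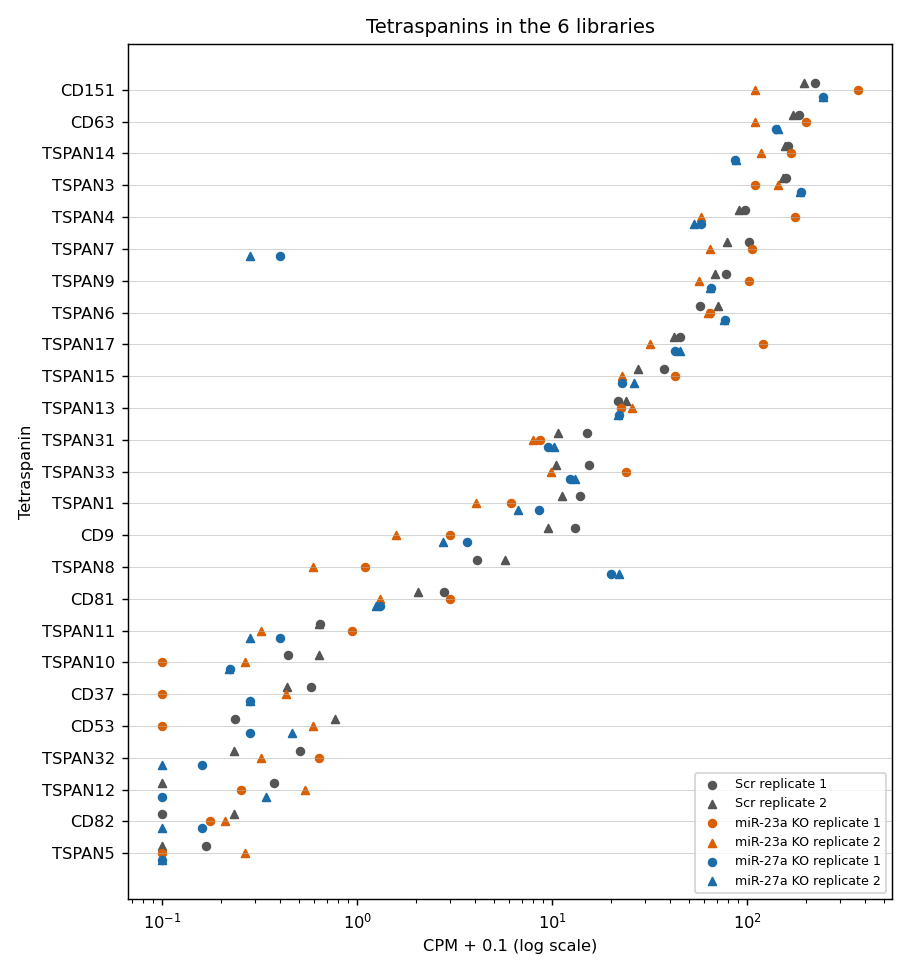
CPM + 0.1 on a log axis for the 25 tetraspanins, ordered by their mean in Scr, with 1 point per library (colour, group; circle, replicate 1; triangle, replicate 2). TSPAN7 stands at 0.303 and 0.180 CPM in miR-27a KO, far below the other 4 libraries, and the miR-23a KO libraries lie apart from each other for many members.

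A filter on low counts kept 17 of the 25 members in each comparison. The other 8 (CD37, CD53, CD82, TSPAN5, TSPAN10, TSPAN11, TSPAN12 and TSPAN32) had at most 11 counts in any library and were not tested. CD37, CD53 and TSPAN32 make up the leukocyte tetraspanins, and the highest count among them was 10. CD82, a tetraspanin known as a metastasis suppressor, had at most 2 counts. TSPAN5 was at 0 in miR-27a KO replicates 1 and 2. There 3 counts, taken as an approximate upper bound for a count of 0, would be 0.182 and 0.181 CPM. Such floors cover counting error only.

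The spread within groups set what each comparison could show. For genes that reached 20 counts over both libraries of a group, the squared difference between the 2 libraries averaged 2.49 times that of counting noise in miR-27a KO, against 28.4 times for Scr and 288 times for miR-23a KO. The median size of the log2 ratio between the replicates of the tetraspanins was 0.07 in miR-27a KO, against 0.30 for Scr and 0.86 for miR-23a KO. The miR-27a KO libraries were thus very alike, yet differed by more than counting noise and were kept as 2 libraries.

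In miR-27a KO against Scr, TSPAN8 rose and TSPAN7, CD9, TSPAN14 and TSPAN4 fell. These 5 passed an adjusted p under 0.05 with more than 1.5-fold in the edgeR quasi-likelihood test with Benjamini-Hochberg adjustment over 13820 genes. The 1 tetraspanin called higher of 17 tested stands beside 3.52% of all genes tested, and the 4 called lower beside 6.74%. At the study's stricter threshold of 0.001, 0 members passed in edgeR, beside 0.0289% of all genes, while 5 passed in DESeq2, beside 6.46%, and 9 members had an unadjusted p under 0.05 in edgeR, beside 32.2%. The groups did not overlap for 4 members higher in miR-27a KO and for 10 lower, beside 33.4% and 31.0% of all genes. The median log2 fold change was -0.34 over the members tested and 0.01 over all genes tested. The members' median was -0.16 without Scr replicate 1, -0.19 after correction for GC content and length and, over all 25 members, -0.56 with no filter.

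TSPAN7, a tetraspanin known from X-linked intellectual disability, had 102 and 78.2 CPM in the Scr libraries, 106 and 63.9 in those of miR-23a KO and 0.303 and 0.180 in those of miR-27a KO. The miR-27a KO libraries held 5 and 3 counts against 1491 and 1165 in Scr. Its mean was 90.1 ± 16.8 CPM (SD, n = 2) in Scr and 0.242 ± 0.0866 in miR-27a KO, with no overlap between these groups. The log2 fold change was -8.52 (SE 0.29, edgeR adjusted p = 0.00128), and TSPAN7 was called lower under each alternative fit and with each library left out. In miR-23a KO against Scr its log2 fold change was -0.07 (SE 0.45, edgeR adjusted p = 1.0).

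**Figure D2:**
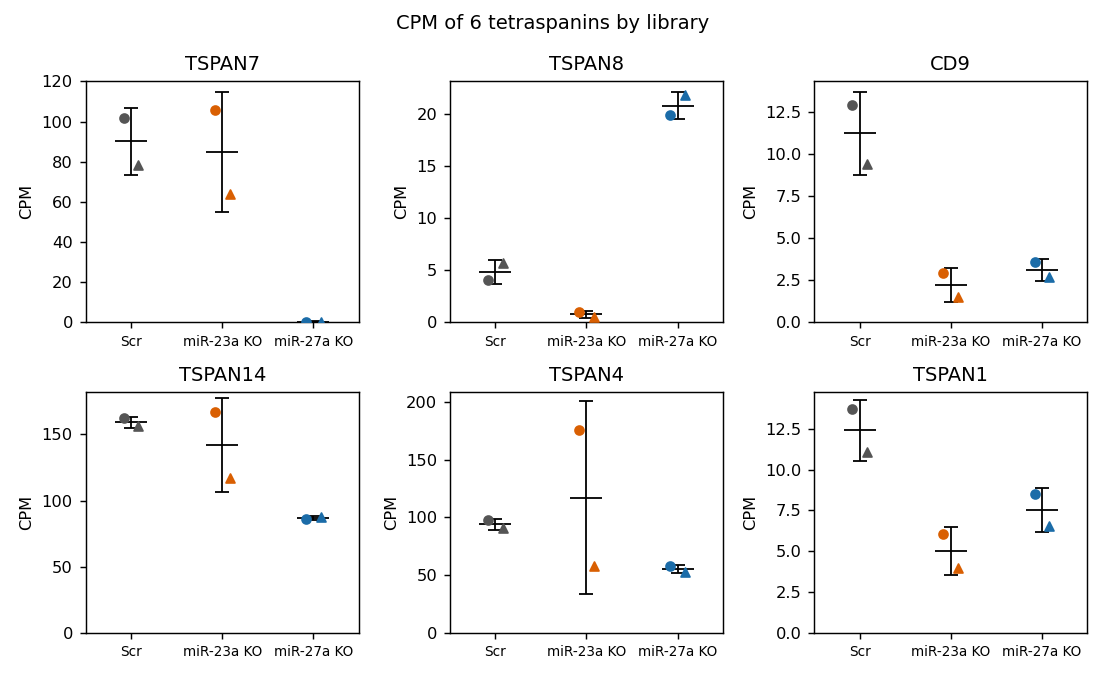
CPM by library for 6 tetraspanins, with points for libraries (circle, replicate 1; triangle, replicate 2) and bars for the mean and 1 SD of the 2 libraries of a group. TSPAN7 is near 0 in miR-27a KO alone, TSPAN8 is high in miR-27a KO and low in miR-23a KO, and both KO groups lie under Scr for CD9 and TSPAN1.

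The neighbours of TSPAN7 were examined because its loss was so deep, with a window of 2 Mb chosen after the values were seen. TSPAN7 lies at chrX:38561370-38688920 on the plus strand (GRCh38, GENCODE release 29), and the next gene of the table on its far side, MID1IP1, starts 113 kb beyond its end. MID1IP1, which takes part in lipid synthesis, had 4 and 3 counts in miR-27a KO, while Scr held 1370 and 1226 and miR-23a KO 1266 and 544. It fell by 8.67 on the log2 scale in miR-27a KO (SE 0.21, edgeR adjusted p = 0.000522). These adjacent genes were thus near 0 in the same 2 libraries. Of the 15 other genes in the window, 8 were tested and MID1IP1 was the 1 called, beside 6.74% of all genes called lower. SRPX and SYTL5 were at 0 in each library of miR-27a KO, beside 7 and 6 counts of SRPX and 7 and 4 counts of SYTL5 in Scr. RPGR, on the near side, had 31 and 28 counts in miR-27a KO and 20 and 45 in Scr, and BCOR, 1360 kb beyond TSPAN7, had 947 and 1080 against 933 and 808. OTC, between RPGR and TSPAN7, had 6 and 9 counts in miR-27a KO and 1 and 4 in Scr. Whether the DNA of this stretch differs between the cells was not tested.

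**Figure D3:**
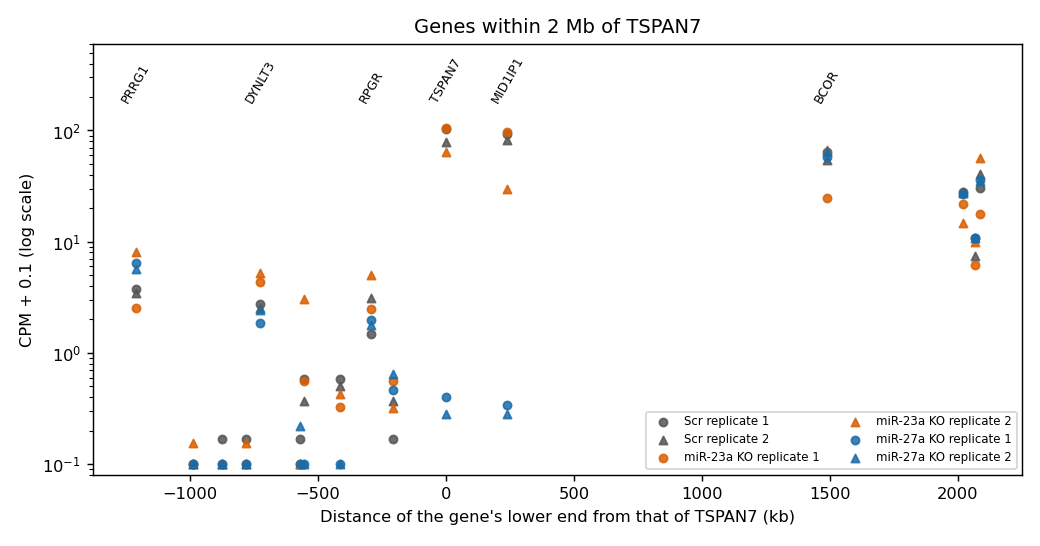
CPM + 0.1 on a log axis for the genes within 2 Mb of TSPAN7, placed by the distance in kilobases of each gene's lower end from that of TSPAN7, with 1 point per library. TSPAN7 and MID1IP1 are near 0 in the miR-27a KO libraries, and BCOR and the genes beyond it lie at similar levels in miR-27a KO and Scr.

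TSPAN8, a tetraspanin of epithelia and of many carcinomas, had 4.03 and 5.64 CPM in the Scr libraries, 0.993 and 0.494 in those of miR-23a KO and 19.9 and 21.8 in those of miR-27a KO. The 3 groups did not overlap, with miR-23a KO lowest and miR-27a KO highest. The log2 fold change against Scr was 2.09 in miR-27a KO (SE 0.22, edgeR adjusted p = 0.00934) and -2.69 in miR-23a KO (SE 0.76, edgeR adjusted p = 1.0). Between the KO groups it was -4.83 (SE 0.54, edgeR adjusted p = 0.0961), so that the difference missed the threshold in that test. The annotation of TSPAN8 overlaps that of LGR5 on the other strand, and whether counting used strand is not given in the sources used here, so reads of the overlap cannot be told apart. LGR5 was also called higher in miR-27a KO, by 0.78 on the log2 scale (SE 0.11, edgeR adjusted p = 0.0166). Of the 15 genes tested within 2 Mb of TSPAN8, those called were LYZ, FRS2 and LGR5, all higher, beside 3.52% of all genes. In the same window those called were 7 of 58 around CD9, 4 of 55 around TSPAN4 and 1 of 13 around TSPAN14, all lower, beside 6.74%.

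CD9, a partner of integrins and of EGFR ligands, had 12.9 and 9.40 CPM in the Scr libraries, 2.90 and 1.48 in those of miR-23a KO and 3.57 and 2.65 in those of miR-27a KO. All 4 KO libraries were below both Scr libraries, as was also so for TSPAN1 and TSPAN31 among the members tested. The log2 fold change was -1.86 in miR-27a KO (SE 0.29, edgeR adjusted p = 0.0216) and -2.34 in miR-23a KO (SE 0.66, edgeR adjusted p = 1.0). The 2 comparisons share the Scr libraries.

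TSPAN14 had 162 and 156 CPM in the Scr libraries, 167 and 117 in those of miR-23a KO and 85.9 and 87.8 in those of miR-27a KO. Its log2 fold change in miR-27a KO was -0.89 (SE 0.080, edgeR adjusted p = 0.00735), and the groups did not overlap. TSPAN4, known for its part in migrasomes, had 97.4 and 90.5 CPM in the Scr libraries, 176 and 57.9 in those of miR-23a KO and 57.5 and 52.9 in those of miR-27a KO. Its log2 fold change in miR-27a KO was -0.79 (SE 0.097, edgeR adjusted p = 0.0134). TSPAN4 and CD151 are neighbours on chromosome 11, 2.98 kb apart, and CD151 had 222 and 195 CPM in Scr and 245 and 244 in miR-27a KO, a log2 fold change of 0.21 (SE 0.096, edgeR adjusted p = 0.201). Corrected for GC content and length, that of CD151 was 0.49 (SE 0.077, edgeR adjusted p = 0.0178), under the fold asked for, and over all alternatives its adjusted p ran from 0.000752 to 0.991.

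With either miR-27a KO library left out, TSPAN7 was still called lower and TSPAN8 higher, while CD9, TSPAN14 and TSPAN4 missed the threshold at similar fold changes. The count called lower was then 1, beside 2.19% of all genes without replicate 1 and 1.76% without replicate 2. Without replicate 1 and without replicate 2, the log2 fold change was -2.09 and -1.65 for CD9 (edgeR adjusted p = 0.0524 and 0.128), -0.87 and -0.90 for TSPAN14 (edgeR adjusted p = 0.0516 and 0.0573) and -0.84 and -0.72 for TSPAN4 (edgeR adjusted p = 0.0722 and 0.14). Without Scr replicate 2 the count called lower was 7, with TSPAN1, TSPAN15 and TSPAN31 added, beside 12.6% of all genes. When all 6 libraries were fitted together, so that the spread of miR-23a KO entered, TSPAN7 was the 1 member called, beside 0.0212% of all genes called higher and 0.431% lower. Corrected for GC content and length, TSPAN4 had a log2 fold change of -0.52, under the fold asked for.

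Other members that lay below or above Scr in miR-27a KO missed the adjusted threshold. CD81 had 1.21 and 1.14 CPM in miR-27a KO, below both Scr libraries, with a log2 fold change of -0.99 (SE 0.39, edgeR adjusted p = 0.152). TSPAN1, an epithelial member, had 13.7 and 11.1 CPM in the Scr libraries, 6.04 and 3.95 in those of miR-23a KO and 8.48 and 6.55 in those of miR-27a KO, and its log2 fold changes were -1.29 (SE 0.58, edgeR adjusted p = 1.0) and -0.74 (SE 0.23, edgeR adjusted p = 0.0981). All 4 KO libraries of TSPAN1 were below Scr. CD63 had 185 and 171 CPM in the Scr libraries, 200 and 110 in those of miR-23a KO and 141 and 143 in those of miR-27a KO, a log2 fold change of -0.34 in miR-27a KO (SE 0.085, edgeR adjusted p = 0.0574). TSPAN6 had 56.8 and 70.5 CPM in the Scr libraries, 64.3 and 63.0 in those of miR-23a KO and 76.3 and 75.9 in those of miR-27a KO, a log2 fold change of 0.24 in miR-27a KO (SE 0.12, edgeR adjusted p = 0.235). Corrected for GC content and length, the log2 fold changes of CD63 and TSPAN6 were -0.17 and 0.03.

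**Figure D4:**
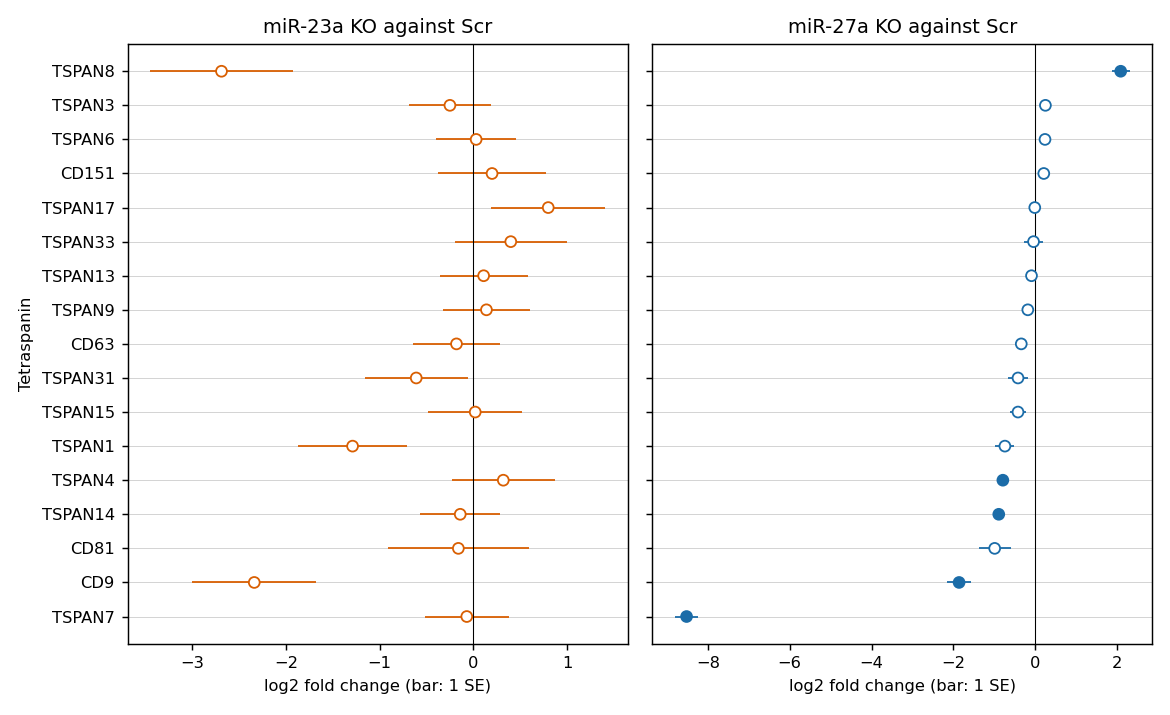
Log2 fold change against Scr with 1 SE for the 17 tetraspanins tested, for either KO group (the axes have different ranges; filled points are called). TSPAN7 at -8.52 and TSPAN8 at 2.09 are the extremes in miR-27a KO, and the bars are wider in miR-23a KO.

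In miR-23a KO against Scr, CD9 and TSPAN8 had the largest differences, and 0 tetraspanins were called in either direction by edgeR, beside 0.0% of all 13786 genes tested. CD9 and TSPAN8 were the 2 members with an unadjusted p under 0.05 (0.00756 and 0.00771), beside 2.41% of all genes, and DESeq2 also called 0 members, beside 0.029% of all genes higher and 0.428% lower. The groups did not overlap for 0 members higher and 5 lower (CD9, TSPAN8, TSPAN1, TSPAN31 and TSPAN3), beside 9.91% and 13.7% of all genes. TSPAN31 had 15.0 and 10.6 CPM in the Scr libraries, 8.56 and 7.85 in those of miR-23a KO and 9.39 and 10.1 in those of miR-27a KO, with a log2 fold change of -0.61 in miR-23a KO (SE 0.55, edgeR adjusted p = 1.0). The median log2 fold change was -0.07 over the members tested and 0.16 over all genes tested. The members' median was -0.51 without miR-23a KO replicate 1, 0.15 without replicate 2 and 0.03 after correction for GC content and length. That of all genes was then -0.05, -0.08 and 0.12.

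The miR-23a KO libraries disagreed with each other for many tetraspanins. CD151 had 368 CPM in replicate 1 and 110 in replicate 2, on both sides of Scr. TSPAN17, a TspanC8 member, had 120 and 31.7 CPM, beside 45.1 and 42.0 in Scr. Without replicate 2, 3 of 17 members were called higher (CD151, TSPAN4 and TSPAN17) and 2 lower (CD9 and TSPAN8), beside 12.0% and 6.6% of all genes. Without replicate 1, CD9 was called lower, beside 1.78% of all genes, and 0 members higher by edgeR, beside 2.34%. Among the 17 tested members, the gap between the libraries tended to be larger at higher GC content, with overlap. This was not tested. The 8 tested members with a GC content of 54.7% to 64.1% had a median log2 ratio of replicate 1 to replicate 2 of 1.23, from 0.86 to 1.91, and the other 9, at 39.6% to 52.0%, had a median of 0.52, from -0.38 to 0.93.

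**Figure D5:**
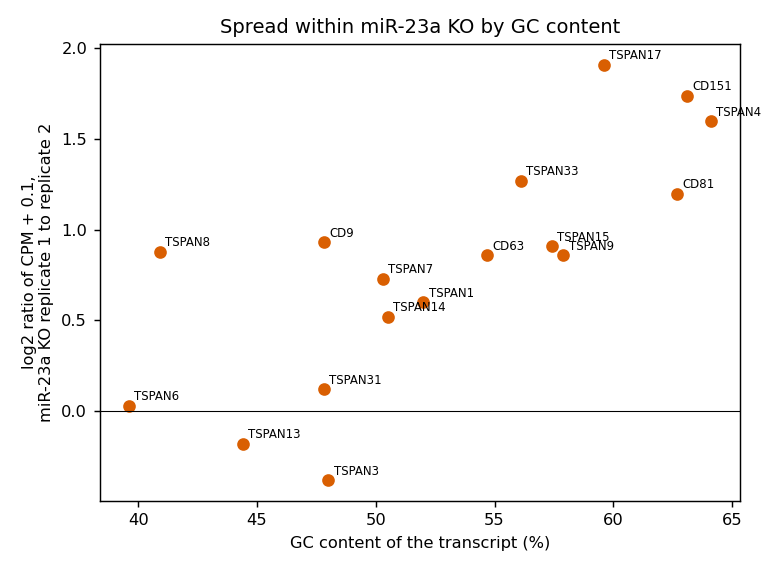
Log2 ratio of CPM + 0.1 in miR-23a KO replicate 1 to replicate 2 against the GC content of the transcript in percent, for the 17 tetraspanins tested. TSPAN17, CD151 and TSPAN4 have the highest ratios and lie above 54.7% GC.

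In miR-23a KO against miR-27a KO, the test of the difference between the KO groups, TSPAN7 and TSPAN8 had the largest differences, and 0 members were called in edgeR, beside 0.0% of 13841 genes tested. TSPAN7 had a log2 fold change of 8.40 (SE 0.61, edgeR adjusted p = 0.0803), with unadjusted p = 4.7e-05, and 2 members had an unadjusted p under 0.05, beside 8.72% of all genes. DESeq2 called TSPAN7 higher and TSPAN8 lower in miR-23a KO, as did the fit of all 6 libraries, the correction for GC content and length and the fits without either miR-27a KO library, while median-ratio scaling and the test with no filter called 0 members. The shares of all genes called higher and lower were 1.87% and 1.58% in DESeq2, 0.77% and 0.77% in the fit of all 6 libraries, 0.918% and 1.03% after the correction, and 0.187% and 0.339% or 0.174% and 0.327% without miR-27a KO replicate 1 or 2. Without miR-23a KO replicate 2, 9 of 18 members were called higher and 2 lower, beside 25.2% and 26.2% of all genes. Without miR-23a KO replicate 1, 1 of 17 was called higher and 3 lower, beside 19.3% and 14.9%, with CD151 lower in place of higher.

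Target letters of the miRNAs were searched in the 3'-UTR of each tetraspanin, taking its longest annotated form. The 7 bases that pair with the seed, AATGTGA for miR-23a-3p and ACTGTGA for miR-27a-3p, were found in 20.7% and 18.3% of the 15935 genes with a 3'-UTR. They were present in 2 and 5 of the 25 tetraspanins. TSPAN3 had 3 sites for miR-23a-3p and 1 for miR-27a-3p, TSPAN12 had 1 for miR-23a-3p, and TSPAN1, TSPAN6, TSPAN9 and TSPAN11 had 1 each for miR-27a-3p. The 3'-UTRs of the 5 called members held none of these letters. The sites of TSPAN3, the member with both, and of TSPAN1 are printed with the site in capitals, as transcript sequence from GENCODE release 29 (GRCh38). They lie at chr15:77044976-77044982, chr15:77043388-77043394, chr15:77042261-77042267 and chr15:77044772-77044778 on the minus strand, and at chr1:46185573-46185579 on the plus strand. A match is a description of letters and no measure of binding.
TSPAN3, miR-23a-3p: gaagttaccagAATGTGAtttcagaggcc
TSPAN3, miR-23a-3p: aaggaggaggaAATGTGAacaggaaggtt
TSPAN3, miR-23a-3p: gtgctttaaaaAATGTGAacaatacagac
TSPAN3, miR-27a-3p: gcaatatttggACTGTGAtgttggttgtt
TSPAN1, miR-27a-3p: gccacatgggaACTGTGAagaggcaccct

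TSPAN3 had 158 and 153 CPM in the Scr libraries, 110 and 143 in those of miR-23a KO and 188 and 186 in those of miR-27a KO. Both miR-23a KO libraries were below Scr and both miR-27a KO libraries above. The log2 fold changes were -0.25 (SE 0.44, edgeR adjusted p = 1.0) and 0.25 (SE 0.076, edgeR adjusted p = 0.0901), and TSPAN3 was not called. Corrected for GC content and length they were -0.02 and 0.16.

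Of the TspanC8 members, 4 of 6 were tested, and TSPAN14 was the 1 called lower in miR-27a KO. TSPAN15, TSPAN17 and TSPAN33 had log2 fold changes of -0.42, -0.01 and -0.04 there. Without Scr replicate 1, TSPAN15 and TSPAN33 were at -0.17 and 0.29, and without replicate 2 at -0.63 and -0.30. Corrected for GC content and length, TSPAN15, TSPAN17 and TSPAN33 were at -0.19, 0.23 and 0.18. ADAM10, the protease they carry, had 26.7 and 41.8 CPM in Scr and 38.1 and 38.6 in miR-27a KO, a log2 fold change of 0.15 (SE 0.22, edgeR adjusted p = 0.68). Of the cell surface, endosome and vesicle tetraspanins, 7 of 8 were tested, and 1 was called higher and 2 lower in miR-27a KO. These counts, and those of the lists that follow, stand beside 3.52% of all genes called higher and 6.74% called lower.

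Of 20 partners of tetraspanins tested, 6 were called higher and 1 lower in miR-27a KO, with a median log2 fold change of 0.05 over the 20, and 0 were called in miR-23a KO. EPCAM, which binds tetraspanins in epithelial cells, had 84.3 and 106 CPM in Scr and 239 and 245 in miR-27a KO, a log2 fold change of 1.33 (SE 0.12, edgeR adjusted p = 0.00761). PTGFRN, a direct partner of CD9 and CD81, had 53.9 and 50.8 CPM in the Scr libraries, 10.5 and 20.1 in those of miR-23a KO and 90.3 and 93.7 in those of miR-27a KO, and was called higher in miR-27a KO with a log2 fold change of 0.79 (SE 0.09, edgeR adjusted p = 0.011). TIMP1, a ligand of CD63, fell by 1.84 on the log2 scale in miR-27a KO (SE 0.13, edgeR adjusted p = 0.00448), from 222 and 181 CPM to 58.8 and 55.5. FZD4 and ZDHHC2, an enzyme that palmitoylates tetraspanins, were called higher with log2 fold changes of 1.22 and 1.21, and ITGA6 with 0.68.

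Of 15 genes of multivesicular bodies and vesicle release, 1 was called higher (LAMP2) and 3 lower (STAM, VPS4A and LAMP1) in miR-27a KO, and 0 in miR-23a KO. LAMP1, which shares late endosomes with CD63, had a log2 fold change of -0.85 (SE 0.084, edgeR adjusted p = 0.00828). Among the 7 entry factors of hepatitis C virus, which include CD81, SCARB1 and EPHA2 were called lower in miR-27a KO, with log2 fold changes of -0.64 and -1.05, and 0 were called in miR-23a KO. Of the L6 proteins, which resemble tetraspanins without belonging to them, 4 of 6 were tested and 0 were called in either comparison, with TM4SF1 the highest at 415 and 282 CPM in Scr. Of 4 tetraspanins with other symbols, ROM1 was the 1 tested, and it was not called. In miR-23a KO against Scr, where edgeR called 0 genes of these lists, DESeq2 also called 0, and 2 partners, 0 vesicle release genes, 0 entry factors and 0 L6 proteins had an unadjusted p under 0.05 in edgeR. For the L6 proteins in miR-27a KO that number was 1, and DESeq2 called 0. The called genes of these lists, MID1IP1 and the called neighbours of TSPAN8 made 17 genes outside the family in miR-27a KO. EPCAM, TIMP1, FZD4, LYZ, FRS2 and MID1IP1 were the 6 also called without either miR-27a KO library, and EPHA2 made 7 without replicate 1. After correction for GC content and length 12 were called, without SCARB1 (a log2 fold change of -0.40), LAMP2 (0.41), VPS4A (-0.47) and ITGA6 (0.48) among those named. SCARB1 and VPS4A also missed the threshold without Scr replicate 1, at -0.53 and -0.57, STAM and VPS4A with no filter, and MID1IP1 was the 1 called in the fit of all 6 libraries.

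Markers of cell types were read beside these results. The 10 hepatocyte and HepG2 markers summed to 35000 and 41000 CPM in the Scr libraries, 38900 and 37100 in those of miR-23a KO and 31000 and 30900 in those of miR-27a KO, with SERPINA1 the highest in 4 libraries and ALB in 2. Both miR-27a KO libraries lay below Scr for 4 of them (ALB, AFP, TTR and FGB) and above for 4 (APOA1, SERPINA1, HNF4A and TF), with overlap for APOB and AHSG. ALB had 10200 and 15000 CPM in Scr and 2090 and 2150 in miR-27a KO, AFP 2550 and 3890 against 184 and 191, and TF 3260 and 2250 against 6550 and 6740. Neuronal markers, led by TUBB3, summed to 334 and 274 CPM in the Scr libraries, 526 and 176 in those of miR-23a KO and 138 and 134 in those of miR-27a KO, with 4 of 6 in the table and RBFOX3 at or under 0.0764 CPM. Leukocyte markers, led by CD68, summed to 197 and 171, 166 and 93.3, and 134 and 132 CPM, with PTPRC at or under 0.134. Fibroblast and stellate markers, led by PDGFRB, summed to 17.2 and 29.1, 30.0 and 20.1, and 5.75 and 5.11 CPM, with COL1A1 at or under 0.137. For that list 2 of 6 were in the table, so PDGFRB made up nearly all of each sum. Endothelial markers were at most 6.97 CPM in sum and islet markers at most 0.727. The part of such differences in the tetraspanin results was not tested.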

How the data were processed

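RNA-seq was read from a table of 20026 genes and 6 libraries. The authors deposited estimated counts per gene, not scaled for depth or length, although the column names say FPKM; that unit was read from the values. The submitters' processing notes name HISAT, StringTie, Cufflinks and GATK without role, and the build, strand setting and counting tool are not given in the sources used here. The kit is TruSeq Stranded mRNA in the study's methods and another TruSeq RNA kit in the labels.

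The counts were rounded to whole numbers. Each pair of groups was fitted alone with edgeR 4.0.16 in R 4.3.3 (TMM scaling, filterByExpr, glmQLFit, glmQLFTest), with Benjamini-Hochberg adjustment over all genes tested. The steps were tested on simulated data with a coefficient of variation between replicates of at most 0.159, that of miR-27a KO against Scr. It was 0.446 in miR-23a KO against Scr and 0.415 between the KO groups, so the simulation did not cover the spread of those comparisons. A gene was called at an adjusted p under 0.05 and over 1.5-fold. CPM used TMM factors of all 6 libraries. The same calls were also made with DESeq2 1.42.0, with median-ratio scaling, unfiltered, from all 6 libraries in 1 model, with a block for replicate number, after loess correction for GC content and length (span 0.5, degree 2, prior count 2), and with each library left out.

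Lengths, GC content, positions and 3'-UTRs came from GENCODE release 29, to which 89.4% of genes matched, and miRNAs from RefSeq. Length meant the principal transcript; the median of the listed RefSeq transcripts was a second definition, added after the values of the members were seen, as was the 2 Mb window for neighbours. Members named with values were those called, those over 1.5-fold with no overlap against Scr, and the 5 highest per length in Scr; others were named after their values were seen. Of other lists, called genes were named, at most 6 a list by size of the log2 fold change, and ADAM10 outside that rule. The members and lists were chosen with earlier results of these data known. Listed genes with no row in the table were not analysed here.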

Additional observations from a re-analysis of the deposited data

Results flagged for a closer look

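TSPAN8 and TSPAN3 stood on opposite sides of Scr in the KO groups, with every miR-23a KO library below both Scr libraries and every miR-27a KO library above them. Of all genes tested, 13.7% lay below Scr without overlap in miR-23a KO and 33.4% above it in miR-27a KO. The share of all genes with both was not counted. For TSPAN8 the log2 fold change was 2.09 for miR-27a KO against -2.69 for miR-23a KO. The difference between the KO groups was tested and missed the threshold in edgeR (log2 fold change -4.83, adjusted p = 0.0961), while DESeq2 called it (adjusted p = 9.91e-11), and over all alternatives the adjusted p ran from 9.91e-11 to 0.0988, the highest with median-ratio scaling. For TSPAN3 the log2 fold changes were -0.25 and 0.25, and the difference between the KO groups was -0.58 (SE 0.34, edgeR adjusted p = 0.76), -0.23 after correction for GC content and length, and -0.77 and called without miR-23a KO replicate 2. Both comparisons share the Scr libraries.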

How the results depend on the processing

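In miR-27a KO against Scr, 1 tetraspanin higher and 4 lower were called with median-ratio scaling, DESeq2 and no filter, as in the main test, beside 3.48% and 6.78%, 4.08% and 7.66%, and 1.57% and 3.04% of all genes. The correction for GC content and length gave 1 and 3, beside 4.12% and 6.13%. The fit of all 6 libraries gave 0 higher and 1 lower, beside 0.0212% and 0.431%, by a spread shared with miR-23a KO. With each library left out in turn, 1 was called higher, beside 0.574% to 13.3% of all genes, and 1 to 7 lower, beside 1.76% to 12.6%. In miR-23a KO against Scr, 0 were called under each alternative with all 4 libraries, beside at most 0.0508% of all genes higher and 0.45% lower. With a library left out 0 to 3 were called higher, beside 0.0% to 12.0%, and 0 to 2 lower, beside 0.028% to 6.6%. In miR-23a KO against miR-27a KO, where the main test called 0, DESeq2, the fit of all 6 libraries and the correction for GC content and length each called 1 higher and 1 lower (beside 1.87% and 1.58%, 0.77% and 0.77%, and 0.918% and 1.03% of all genes), and leaving out libraries gave 1 to 9 higher, beside 0.174% to 25.2%, and 1 to 3 lower, beside 0.327% to 26.2%. CD151 was there at -0.04 on the log2 scale, at 0.59 without miR-23a KO replicate 2 and at -1.18 without replicate 1. A library left alone in its group was assumed to vary like the others. The cause of these shifts was not tested.

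The replicate block, for libraries that share only a number, gave 1 higher and 4 lower in miR-27a KO against Scr, 0 and 0 in miR-23a KO against Scr, and 1 and 1 between the KO groups, beside 4.52% and 7.74%, 0.0508% and 0.45%, and 1.52% and 1.37% of all genes. With the GC correction it gave 1 and 3, 0 and 0, and 1 and 1, beside 4.8% and 6.78%, 0.0145% and 0.123%, and 3.27% and 3.29%. Same-numbered libraries had correlations of their deviations of 0.238, -0.00892 and 0.0248 over 14163 genes. The limma alternative was not run because the values are counts. With the second definition of length, the level per kilobase in Scr moved by more than 1 SD of the Scr libraries for 5 of 25 members, CD63 (187), CD151 (138), TSPAN3 (38.3), TSPAN14 (197) and CD9 (9.17). With 2 libraries a group, the spread within miR-23a KO limits what could be called.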
